A study of Mus musculus with 12 samples.

Results

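The comparison described here sets the fraction labelled Sertoli cells against the fraction labelled germ cells in the testes of 3 mice labelled TAP73 knockout, with 1 array per fraction and mouse (6 of the 12 arrays of the series). Arrays were chosen by their source name and paired by the mouse number in the title (120, 86 and 72). A probe was taken in when the scanner marked it as clearly above background in all 3 mice in either fraction. Of 39429 probes, 30239 met this rule, and they stood for 24788 genes. Of the probes, 22953 were well above background on all 6 arrays, 5737 on all 3 germ arrays but not all 3 Sertoli arrays, and 1549 on all 3 Sertoli arrays but not all 3 germ arrays. At the edge of the rule, 1291 probes were left out with 2 of 3 arrays in their better fraction, at a median level of -6.62 there. The 4518 probes kept with 3 arrays in 1 fraction and 0 in the other had a median of -3.39 in that fraction. Levels throughout are log2 of the scanner's processed signal relative to the 75th percentile of the array.

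All mice were male and of strain C57BL/6J. The labels call the knockout TAP73, the name of the transactivating form of p73, a relative of p53 that the gene Trp73 encodes, and do not say which part of the gene was removed or whether the loss was limited to a cell type. Knockout mouse 120 was 4 months old, and mice 86 and 72 were 8 months old. The control mice, used below only where stated, were mouse 99 (titled WT, 5 months old) and mice 73 and 74 (titled het but with wildtype in the source name, 8 months old). Germ and Sertoli cells were isolated from the whole testis after CO2 euthanasia by a method that the labels do not describe. The labels state no pooling of animals. Each knockout mouse had a slide of its own among the knockout arrays, which it shared with 1 control mouse.

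In the seminiferous tubule, Sertoli cells are the somatic cells that nurse the germ cells, hold them by specialized adherens junctions, and seal the tubule with tight junctions. Germ cells pass from spermatogonia through meiosis as spermatocytes to haploid round and elongating spermatids, and their transcriptome is unusually rich in genes read in no other tissue. Peritubular myoid cells, Leydig cells, macrophages, vessels and fibroblasts lie around the tubules.

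The 75th percentile of the processed signal lay between 2941 and 5350 on the 6 arrays, no probe was saturated, and 64.1% to 67.5% of probes were well above background on the Sertoli arrays against 75.2% to 78.9% on the germ arrays. Across genes, which are not independent replicates, the Sertoli arrays correlated with each other at r from 0.990 to 0.993 and the germ arrays at 0.972 to 0.991. A Sertoli array correlated with a germ array at 0.540 to 0.564. The germ array of mouse 86 stood apart from the other 2. On it, 2546 genes were over 2-fold below the mean of the others and 501 over 2-fold above. The number of arrays limits the precision.

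Genes were called when limma gave a Benjamini-Hochberg adjusted p under 0.05 in a fit of 4 group means over all 12 arrays, and differences are Sertoli minus germ on the log2 scale with the standard error (SE) of that fit. Of the 24788 genes, 9491 (38.3%) were higher and 9210 (37.2%) lower in the Sertoli fraction. At a fitted difference of at least 4-fold, 4941 genes (19.9%) were higher and 6530 (26.3%) lower. The arrays of the fractions did not overlap for 20140 genes (81.2%). These shares are the background for every count below, and a list whose counts lie near them does not stand out from the rest of the transcriptome. The median difference of all genes was 0.10, and it was 0.03, 0.16 and 0.07 within mice 120, 86 and 72. Without mouse 86 the counts were 8518 higher and 8565 lower, and 4910 and 6472 at 4-fold. The share of higher genes among the calls, 50.8%, depends on the scaling. It was 64.8% when each array's median was subtracted, which moved the median difference up by 0.85. It was 42.7% with the percentile taken over probes detected on all 12 arrays, which moved the median to -0.32, a shift of -0.42. Quantile normalization and the table deposited by the authors moved it up by 0.37 and 0.34. A total of 3250 genes were not well above background on any Sertoli array, and 411 not on any germ array. For such genes a fold is given as a lower bound, with the bright fraction's mean set against a floor. The floor is the dimmest signal that still counted as above background on each array of the other fraction, or the gene's own value there where that was larger. Among genes named below by a difference, the dim fraction was detected on 2 of 3 arrays for Cldn3, Cdh3, Itgav, Uty, Cd276, Gapdhs and Pgk2 and on 1 of 3 for Hhip, Crabp1, Mybl1, Pdha2, Egr3 and Bcl2l14, so those sizes are less certain. For Amhr2, Ctnna1 and Timp2 the germ spot of mouse 72 was dropped as an outlier, and for Hmgcs1 a control spot. With bounds in place of fitted values, 4800 genes were at least 4-fold higher and 5836 lower. In a bulk fraction, more cells of a type and more RNA per cell cannot be told apart.

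**Figure D1:**
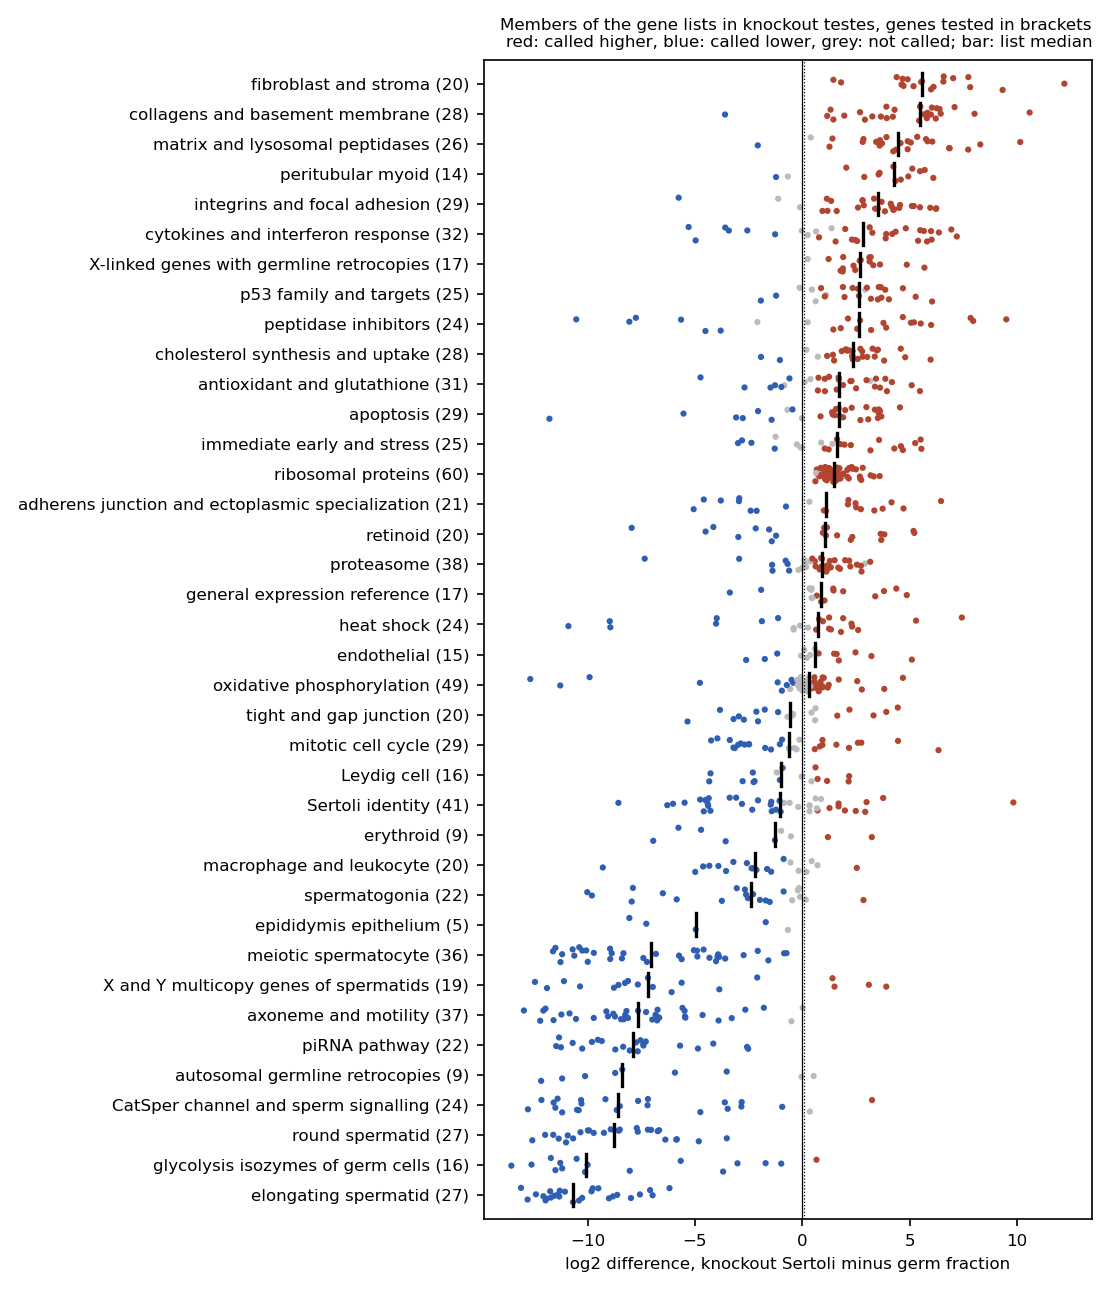
Log2 difference between the Sertoli and the germ fraction of knockout testes (horizontal axis) for each tested member of 38 gene lists, with list medians as black bars and the median of all genes as a dotted line. Elongating spermatid genes lie farthest to the left (median -10.68) and fibroblast genes farthest to the right (5.56), while Sertoli cell markers spread to both sides (median -1.06).

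The fraction labelled Sertoli was not the richer in most Sertoli cell markers. Of 43 listed markers, 41 were tested, 22 were lower in the Sertoli fraction, 10 were higher and 9 were not called, with a median of -1.06 against 0.10 for all genes (-0.20 against 0.95 with array medians subtracted). Fshr, the receptor for follicle-stimulating hormone and a defining marker, lay at -9.12, -8.71 and -8.96 in the Sertoli fractions of mice 120, 86 and 72 and at -2.63, -2.77 and -2.53 in the germ fractions. It was not well above background on any Sertoli array and was at least 18.5-fold lower there (adjusted p 1.45e-08). Rhox5, an androgen-driven homeobox gene of Sertoli cells, lay at -3.19, -2.68 and -2.93 in the Sertoli and at 2.15, 2.78 and 2.71 in the germ fractions. Its difference was -5.48 ± 0.24 (adjusted p 3.83e-09), with no overlap between the fractions. Dhh, the hedgehog ligand by which Sertoli cells signal to Leydig and myoid cells, had a difference of -2.33 ± 0.32, and Cldn11, the claudin of the blood-testis barrier, had a difference of -2.06 ± 0.61 that was not called without mouse 72 (-1.48, adjusted p 0.111). The inhibin alpha gene Inha (-3.38), the nuclear receptor gene Nr0b1 (-6.02), Gata1 (-4.36), the anti-Mullerian hormone receptor gene Amhr2 (-4.27) and the defensin gene Defb19 (-4.40) were lower as well. Tsx was at least 157-fold lower. It is also in the list of multicopy X and Y genes of spermatids and is counted in both, so it is no clear Sertoli marker here.

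Other Sertoli markers lay the other way or were not called. Inhba, which encodes the beta A subunit of activin and inhibin, was among the genes with the largest measured difference of all, at 3.54, 3.70 and 3.55 in the Sertoli and -6.79, -6.10 and -5.82 in the germ fractions. The difference was 9.84 ± 0.35 (adjusted p 9.02e-10). Inhbb, the beta B subunit, was higher by 3.77 ± 0.41 and Gata4, a transcription factor of testis somatic cells, by 2.49 ± 0.43. Vim, the intermediate filament gene of mesenchymal and Sertoli cells (3.00), and the transcription factor gene Etv5 (1.69) were also higher. Sox9, which drives Sertoli cell identity, lay at -1.0, -1.58 and -1.74 in the Sertoli and -2.09, -3.08 and -1.79 in the germ fractions, a difference of 0.88 ± 0.42 that was not called (adjusted p 0.0768), but was called when the arrays were paired by mouse in a fit of the 6 knockout arrays (0.0468) and without mouse 72 (1.29, 0.0478). Wt1, a second transcription factor of these cells, lay at 2.50, 2.43 and 2.71 against 1.93, 2.30 and 2.37 and was not called either (0.35 ± 0.19, adjusted p 0.112). With array medians subtracted Sox9 (1.73) and Wt1 (1.2) were both called. The Sertoli arrays were the higher for both genes in each mouse. Amh and Sox8 did not meet the detection rule. The summed signal of the 41 markers, on the log2 scale, was 7.95 to 8.12 on the Sertoli arrays and 7.99 to 8.36 on the germ arrays. In the text below, Sertoli fraction and germ fraction stand for the labels.

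**Figure D2:**
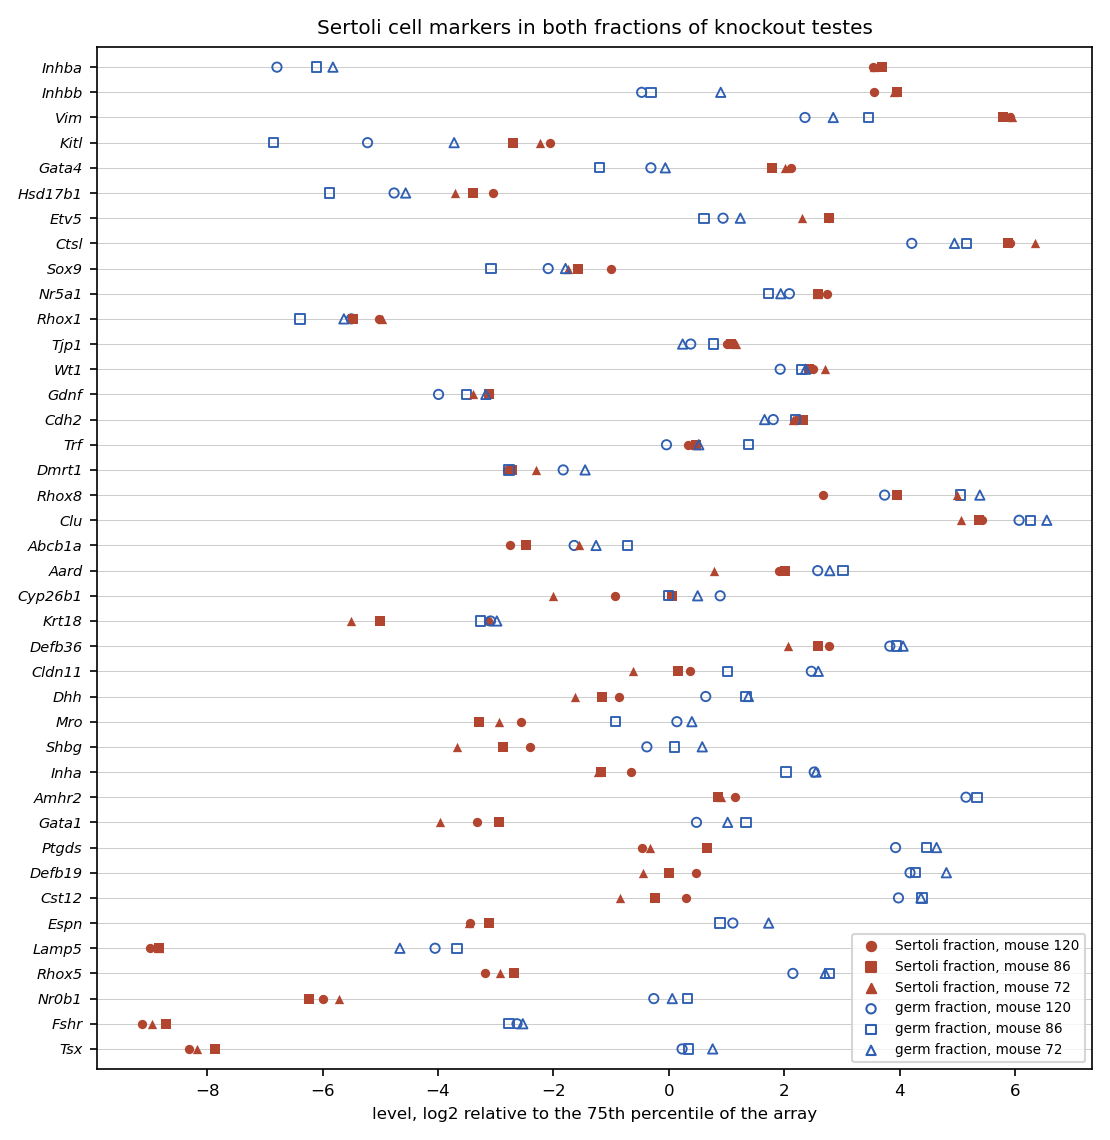
Level of tested Sertoli cell markers on the 6 knockout arrays, log2 relative to the array's 75th percentile, with the Sertoli fraction filled and the germ fraction open and a symbol for each mouse. Tsx (also listed among spermatid genes), Fshr and Nr0b1 at the bottom are far lower in the Sertoli fraction. Inhba at the top is far higher, and Wt1 and Sox9 lie close together.

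Markers of fibroblasts and peritubular myoid cells were higher in the Sertoli fraction almost without exception. All 20 fibroblast and stroma markers were higher, 18 of them at least 4-fold, with a median of 5.56. Col1a1, a chain of type I collagen, lay at 4.78, 4.88 and 5.57 in the Sertoli and at -1.88, -1.71 and -2.27 in the germ fractions. Its difference was 7.03 ± 0.36 (adjusted p 1.24e-08). Dcn, the matrix proteoglycan decorin, was higher by 5.58 ± 0.34, the growth factor receptor gene Pdgfra by 5.54 ± 0.19 and Tcf21, a transcription factor of mesenchyme, by 6.58 ± 0.27. Lox, the collagen cross-linking enzyme, had the largest fitted difference of the whole table (12.21 ± 0.58). It lay at 4.83, 5.13 and 4.49 in the Sertoli fractions and at -8.12, -5.80 and -8.26 in the germ fractions, where only 1 array was well above background, so its size is uncertain. Another probe of Lox gave a smaller difference of 8.87. Of 14 tested myoid markers, 12 were higher, each at least 4-fold, and the median was 4.29. Acta2, smooth muscle actin, lay at 6.94, 6.88 and 7.44 against 2.65, 2.32 and 2.52 (difference 4.59 ± 0.25, adjusted p 2.18e-08). Cnn1 (5.49), Des (5.13), Tagln (4.94) and Myh11 (3.56), further parts of the smooth muscle contractile machinery, were also higher, while Hhip, a hedgehog-binding inhibitor, was the exception (-1.22 ± 0.40). The call of Hhip was lost without mouse 120 (-1.09, adjusted p 0.107), and its sign turned under quantile normalization (0.03). The summed signal of the fibroblast list was 9.23 to 9.64 on the Sertoli and 5.35 to 5.95 on the germ arrays, and that of the myoid list 8.85 to 9.34 and 5.24 to 5.49.

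Macrophage and red cell markers leaned to the germ fraction, and Leydig cell markers did so less clearly. Of 16 tested Leydig markers, 8 were lower and 5 higher in the Sertoli fraction (median -0.98). The Leydig median was -0.61 under normexp background correction and -0.12, against 0.95 for all genes, with array medians subtracted. In control mice it was -0.23. Cyp17a1, a steroid hydroxylase and lyase, had a difference of -2.78 ± 0.69, Hsd17b3, which makes testosterone, one of -4.33 ± 0.39 and Hsd3b6 one of -4.27 ± 0.69. Star, which carries cholesterol into mitochondria, was higher (2.19 ± 0.33). Insl3 and Lhcgr did not meet the detection rule. The summed Leydig signal was 5.41 to 5.52 on the Sertoli and 5.04 to 5.58 on the germ arrays. Of 20 macrophage and leukocyte markers, 14 were lower and 1 was higher (median -2.22, or -1.21 under quantile normalization). Cd74, the invariant chain of MHC class II, lay at -5.43, -5.27 and -4.74 in the Sertoli and -0.80, 0.34 and -0.03 in the germ fractions. Its difference was -4.98 ± 0.46 (adjusted p 1.70e-06), and the complement gene C1qa (-3.55 ± 0.59) and the mannose receptor gene Mrc1 (-4.33 ± 0.27) were lower too. Cd68 did not meet the detection rule. Csf1r, the receptor for macrophage colony-stimulating factor, was the exception at 2.54 ± 0.38, but the 3 probes of this gene pointed in different directions. The summed macrophage signal was 3.59 to 3.85 on the Sertoli and 5.46 to 5.53 on the germ arrays. Hemoglobin genes were lower, with Hba-a1 at -4.71 ± 0.36 and Hbb-bt at least 25.8-fold, as was the heme synthesis gene Alas2 (-5.77 ± 0.20). In all, 5 of 9 tested erythroid markers were lower and 2 higher (median -1.27, or -0.06 under quantile normalization), with a summed signal of -2.09 to -1.61 on the Sertoli and 1.48 to 1.87 on the germ arrays. Of 15 endothelial markers 7 were higher and 3 lower (median 0.60). Pecam1, an adhesion protein of vessels, was higher by 1.6 ± 0.40, and the summed signal was 3.64 to 4.42 on the Sertoli and 3.24 to 3.38 on the germ arrays. Of 18 epididymis genes, 5 were tested and 4 were lower, with Cst8 (-8.05 ± 0.24) and Lcn2 (-4.96 ± 0.55) among them, and the defining markers Lcn5, Crisp1 and Adam7 did not meet the detection rule. The part of these cell types in the results below was not tested.

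Germ cell markers were mostly lower in the Sertoli fraction in the list of each stage, and the later the stage of the list, the lower its median. Spermatogonia markers had a median of -2.41 (16 of 22 lower, 1 higher), meiotic spermatocyte markers -7.03 (36 of 36 lower, 33 at least 4-fold), round spermatid markers -8.76 (27 of 27, all at least 4-fold) and elongating spermatid markers -10.68 (27 of 27, all at least 4-fold). With only probes detected on all 6 arrays the spermatogonia median was -1.6 and the spermatocyte median -4.17. Every tested spermatocyte and spermatid marker was well above background on all 3 germ arrays. On all 3 Sertoli arrays this held for 16 of 36 spermatocyte, 17 of 27 round and 14 of 27 elongating spermatid markers. The rest met the detection rule only through the germ arrays, so the counts of lower genes are partly set by that rule. The same limit applies to the other germ cell lists below. With bounds in place of fitted values where a gene was not detected, the 4 medians were -1.83, -6.23, -8.50 and -10.25. The summed signal of the spermatogonia list was 2.31 to 2.56 on the Sertoli and 5.84 to 6.02 on the germ arrays, and that of the elongating spermatid list 1.35 to 1.48 and 9.95 to 10.17. The order among these lists was not tested, and each list rests on genes of different brightness. Sycp1, which builds the central region of the synaptonemal complex, lay at -9.12, -8.91 and -7.98 in the Sertoli and at 1.84, 2.21 and 1.79 in the germ fractions. It was at least 447-fold lower in the Sertoli fraction (adjusted p 1.20e-09). Sycp3, an axial element protein of the same complex, had a difference of -8.95 ± 0.36, Spo11, which makes meiotic DNA breaks, was at least 245-fold lower, and the recombinase gene Dmc1 had a difference of -3.87 ± 0.27. Acrv1, an acrosomal protein, lay at -7.84, -7.99 and -8.64 against 3.26, 3.59 and 2.72 and was at least 1060-fold lower. The acrosomal protease gene Acr (-8.55 ± 0.47) and Spaca1 (-6.74 ± 0.23) were lower as well. Prm1, a protamine that packs sperm DNA, lay at -2.30, -2.34 and -1.84 in the Sertoli and at 6.39, 6.35 and 6.65 in the germ fractions. Its difference was -8.62 ± 0.44 (adjusted p 1.30e-08), and all 3 Sertoli arrays still detected it. Prm2 (-9.50), Tnp1 (-9.76 ± 0.34) and Tnp2 (-10.25), which encode the second protamine and both transition proteins, were lower too. Among spermatogonia markers, Zbtb16, needed for stem cell renewal, had a difference of -1.97 ± 0.24 and Kit, of differentiating spermatogonia, was not called (-0.47 ± 0.35). Stra8, which starts meiosis in response to retinoic acid, lay at -8.01, -7.02 and -5.09 against 0.77, 1.64 and 1.31, with 1 of 3 Sertoli arrays well above background (difference -7.95 ± 0.65). Ret, a receptor for the niche factor GDNF, was the 1 marker of this list that was higher (at least 3.56-fold), a call lost under normexp background correction (adjusted p 0.0905).

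By the rule for named genes, the largest differences toward the germ fraction measured on all 6 arrays were those of Plaat5, a phospholipase A and acyltransferase gene (-12.00 ± 0.40), Cypt12 (-11.98 ± 0.35), the lipid-binding gene Fabp9 (-11.92 ± 0.47), Ldhc (-11.50 ± 0.58), the sperm mitochondrial capsule gene Smcp (-11.38 ± 0.46), the synaptonemal complex gene Syce1 (-11.26 ± 0.46), the piRNA factor gene Mael (-11.24 ± 0.45) and Znrf4 (-11.20 ± 0.35). All 8 had adjusted p values between 3.14e-10 and 1.04e-08. The 8 largest bounds were those of Clec2m (at least 5780-fold), Spata4 (5480), Cox8c (5310), Gk2 (4080), Pabpc2 (4070), Gykl1 (3560), Ccdc113 (3440) and Slc6a21 (3430). Clec2m, a C-type lectin family gene, lay at 5.65, 5.55 and 5.73 in the germ and at -7.49, -7.26 and -7.43 in the Sertoli fractions.

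Meiotic genes and those of the piRNA pathway, which silences transposons in the male germ line, shared this pattern, and a MYB-type motif was more frequent in their promoters than in the promoter table as a whole. Of 22 tested piRNA genes, 22 were lower, each at least 4-fold (median -7.89, or -7.48 with bounds). All 22 were well above background on all 3 germ arrays, but only 10 on all 3 Sertoli arrays. Piwil1, a PIWI protein of pachytene spermatocytes, lay at -9.04, -8.88 and -8.67 against 2.10, 1.33 and 2.07 and was at least 412-fold lower. Mybl1, the MYB-family transcription factor of pachytene spermatocytes, was lower as well (-3.59 ± 0.42). The letters CCGTTA, searched on both strands of the 300 bases around each RefSeq start (250 before and 50 after), stood in 2.76% of 32851 promoters of the table. They stood in 19% of the 42 promoters of the spermatocyte list (8 promoters), in 11.1% of the 27 of the piRNA list (3), in 3.76% of 3936 promoters of genes at least 4-fold lower in the Sertoli fraction, in 2.52% of 3536 of genes at least 4-fold higher, and in 3.67% of 8994 of the other genes. RefSeq promoters were found for 34 of the 39 listed spermatocyte genes and 19 of the 24 piRNA genes. Piwil1 is in both lists and counts in both shares. Over the 530 tested genes with the MYB letters the median difference was -0.16, against 0.19 over 12572 genes without them. Of the genes with the letters 25.7% were at least 4-fold lower and 16.4% at least 4-fold higher, so the 4-fold lower share lay near that of all genes. Members with the motif included Piwil1, Sycp1, Meioc and Ldhc, picked as examples, and positions in the other members are not given. The 250 bases before their starts are given from RefSeq on build GRCm38.p6, in the direction of transcription with the motif in capitals. They lie at chr5:128735996-128736245 (plus strand), chr3:102936101-102936350 (minus strand), chr11:102665335-102665584 (plus strand) and chr7:46861013-46861262 (plus strand), and the motif begins 139, 33, 7 and 34 bases before the start. Those of Sycp1, Meioc and Ldhc thus lie close to the start, and that of Meioc is on the other strand and appears as TAACGG.
Piwil1: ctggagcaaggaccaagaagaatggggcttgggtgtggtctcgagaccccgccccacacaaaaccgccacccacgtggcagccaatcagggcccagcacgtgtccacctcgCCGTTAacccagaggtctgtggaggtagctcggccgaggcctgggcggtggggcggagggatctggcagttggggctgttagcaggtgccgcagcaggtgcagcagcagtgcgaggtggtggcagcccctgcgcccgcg
Sycp1: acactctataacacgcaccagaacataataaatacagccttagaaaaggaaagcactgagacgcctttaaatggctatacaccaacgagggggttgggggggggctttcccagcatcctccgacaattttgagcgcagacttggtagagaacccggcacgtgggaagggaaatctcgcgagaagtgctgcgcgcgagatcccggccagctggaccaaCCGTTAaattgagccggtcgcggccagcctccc
Meioc: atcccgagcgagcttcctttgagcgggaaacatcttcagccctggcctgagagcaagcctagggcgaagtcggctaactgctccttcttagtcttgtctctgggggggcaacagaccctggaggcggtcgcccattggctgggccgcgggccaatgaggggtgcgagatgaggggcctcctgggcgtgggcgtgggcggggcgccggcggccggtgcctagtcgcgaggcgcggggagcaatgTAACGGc
Ldhc: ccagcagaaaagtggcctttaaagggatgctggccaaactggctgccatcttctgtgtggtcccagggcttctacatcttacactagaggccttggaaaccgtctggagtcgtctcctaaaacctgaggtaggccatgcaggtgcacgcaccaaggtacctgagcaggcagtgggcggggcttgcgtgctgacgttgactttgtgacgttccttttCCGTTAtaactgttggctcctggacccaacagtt
Meioc, which keeps germ cells in meiotic prophase, was at least 274-fold lower in the Sertoli fraction, and Ldhc, the lactate dehydrogenase of germ cells, lay at -5.77, -5.54 and -4.70 against 6.24, 5.75 and 6.5 (adjusted p 1.04e-08). A match to the letters is a description and not a site of binding. Other motifs searched in the same way were CRE and its shorter form, AP-1, SF-1, GATA, ETS and TATA box, and most of their shares are not given. CRE letters stood in 0 of 30 elongating and 1 of 29 round spermatid promoters. Of 49 tested genes with the SF-1 letters, 38.8% were at least 4-fold lower in the Sertoli fraction and 20.4% at least 4-fold higher.

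Genes of the sperm tail behaved alike. Of 37 tested genes of the axoneme, the microtubule core of the tail, 35 were lower in the Sertoli fraction, 34 of them at least 4-fold, and the median was -7.65 (-6.84 with bounds). All 37 were well above background on all 3 germ arrays, but only 20 on all 3 Sertoli arrays. Of the dynein arm genes, Dnah2 was at least 1730-fold lower, and Dnah8 (-8.31 ± 0.32) and Dnali1 (-8.80 ± 0.25) were lower too. Of the central pair and radial spoke genes, Spag6 was at least 626-fold lower, Spag16 at least 1020-fold lower and Hydin lower with a difference of -8.44 ± 0.54 (-4.81 on its other probe). Tekt1, a tektin of the doublet microtubules, lay at -6.92, -6.83 and -5.48 in the Sertoli and at 5.05, 5.30 and 5.19 in the germ fractions (difference -11.59 ± 0.56, adjusted p 7.52e-09, 1 Sertoli array well above background). The intraflagellar transport genes Ift88 (-2.65 ± 0.27) and Ift172 (-3.90 ± 0.25), which all ciliated cells use, differed by less. Dnal1, a dynein light chain gene, was not called (0.02 ± 0.29). Of 24 tested genes of the sperm calcium channel and its signalling, 22 were lower (median -8.57, or -4.17 with only probes detected on all 6 arrays). The channel gene Catsper1 was at least 838-fold lower, the bicarbonate-sensing cyclase gene Adcy10 at least 1650-fold lower and Plcz1, the sperm factor that activates the egg, at least 1080-fold lower. Hvcn1, the voltage-gated proton channel, was the 1 gene of the list that was higher (3.25 ± 0.28).

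The letters GTTGCCA, a part and not the whole of the X-box read by RFX factors, which control cilium genes, were also more frequent among these promoters. They stood in 4.38% of all promoters of the table, in 6.71% of those of genes at least 4-fold lower in the Sertoli fraction, in 2.74% of those at least 4-fold higher and in 3.79% of the rest. Of the 42 axoneme promoters 7 held them (16.7%), those of Cfap44, Drc1, Gas8, Hydin, Ift88, Tekt1 and Zmynd10. Over the 656 tested genes with the GTTGCCA letters the median difference was -0.76, with 37.3% at least 4-fold lower and 13.9% at least 4-fold higher, against a median of 0.21 over 12446 genes without them. Promoters were found for 39 of the 48 listed axoneme genes. Rfx2, a spermatid RFX factor, was itself lower (-5.84 ± 1.09). The sequences show where the letters lie in members named above and in 2 more axoneme genes, Drc1 (-9.13 ± 0.25), of the dynein regulatory complex, and Cfap44 (at least 31.2-fold lower). They lie at chr11:72361883-72362132 (minus strand), chr5:30281143-30281392 (plus strand), chr16:44394549-44394798 (plus strand) and chr8:110266727-110266976 (plus strand), and capitals mark GTTGCCA or, on the other strand, TGGCAAC. The letters begin 15, 12, 20 and 14 bases before the start, with a further copy in Cfap44 at 130 bases.
Tekt1: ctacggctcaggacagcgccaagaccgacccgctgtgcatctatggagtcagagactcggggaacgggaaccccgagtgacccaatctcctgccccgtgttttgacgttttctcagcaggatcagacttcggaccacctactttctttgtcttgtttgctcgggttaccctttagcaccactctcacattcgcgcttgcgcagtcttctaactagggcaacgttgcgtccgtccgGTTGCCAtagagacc
Drc1: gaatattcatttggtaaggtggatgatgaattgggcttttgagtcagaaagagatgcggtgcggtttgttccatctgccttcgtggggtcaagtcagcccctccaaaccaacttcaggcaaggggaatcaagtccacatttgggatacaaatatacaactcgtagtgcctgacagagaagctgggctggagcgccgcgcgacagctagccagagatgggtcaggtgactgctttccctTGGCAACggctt
Cfap44: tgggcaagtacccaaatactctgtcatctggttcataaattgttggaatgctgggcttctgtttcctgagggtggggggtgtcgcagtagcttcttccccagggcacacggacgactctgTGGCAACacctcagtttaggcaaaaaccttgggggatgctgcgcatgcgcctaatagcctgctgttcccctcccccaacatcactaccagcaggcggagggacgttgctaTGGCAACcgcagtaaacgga
Hydin: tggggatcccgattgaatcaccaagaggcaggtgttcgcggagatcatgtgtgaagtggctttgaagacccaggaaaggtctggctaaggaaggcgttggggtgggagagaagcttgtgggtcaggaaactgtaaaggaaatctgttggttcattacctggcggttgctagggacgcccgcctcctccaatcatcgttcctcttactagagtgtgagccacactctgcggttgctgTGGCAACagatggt
In each of these 4 promoters, picked from the 7 axoneme promoters with the letters, a copy lies within 20 bases of the start. Positions in Gas8, Ift88 and Zmynd10 are not given. The share of all promoters with the letters so placed was not computed.

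Where a widely expressed gene has a germline form, the 2 forms mostly lay on opposite sides. Of 39 listed pairs 36 were tested, and in 26 the widely expressed form was higher and the germline form lower in the Sertoli fraction. Which form is called germline follows the list, and expression in other tissues was not checked. The 26 include Hk2 with Hk1 and Hsp90ab1 with Hsp90aa1, where the listed germline form differed by only -1.71 and -1.12. In 7 the germline form was lower and the widely expressed form was not called higher, and in 3 only the widely expressed form was higher. The glycolytic kinase gene Pgk1 lay at 5.6, 5.89 and 5.81 in the Sertoli and 0.56, 1.32 and 0.81 in the germ fractions (4.87 ± 0.21, adjusted p 3.59e-09). Its germline form Pgk2 lay at -6.66, -6.00 and -6.24 against 5.08, 4.82 and 4.76 (-11.19 ± 0.38, adjusted p 7.01e-10). Neither gene's arrays overlapped between the fractions. Of 16 tested isozymes of germ cell energy metabolism 15 were lower and 1, Tpi1 (0.66 ± 0.20), was higher, with a median of -10.06 (-4.67 with only probes detected on all 6 arrays). The call of Tpi1 was lost without mouse 72 (adjusted p 0.0558), and its sign turned under quantile normalization (-0.12). The pyruvate dehydrogenase genes Pdha1 (5.69 ± 0.28) and Pdha2 (-10.12 ± 0.43), the glycolysis genes Gapdh (1.91 ± 0.31) and Gapdhs (-11.71 ± 0.49), and the cohesin genes Smc1a (3.33) and Smc1b (-10.06 ± 0.31) showed the same split. So did the cyclin genes Ccna2 (2.18) and Ccna1 (at least 816-fold lower), the proteasome genes Psma7 (2.24) and Psma8 (at least 82.9-fold lower) and the cytochrome oxidase genes Cox8a (2.56) and Cox8c (at least 5310-fold lower). Ldha, by contrast, lay at 6.01, 6.05 and 6.46 in the Sertoli and 5.96, 5.72 and 6.11 in the germ fractions, a difference of 0.24 ± 0.26 that was not called (adjusted p 0.421). The sign of Ldha depended on the scaling, and it was called at -0.57 under quantile normalization and at 1.09 with array medians subtracted. In 3 pairs the widely expressed form was itself lower in the Sertoli fraction, with Gk at -5.09, Tbp at -1.91 and Ppp3ca at -0.75. The calls of Tbp (adjusted p 0.0825) and Ppp3ca (0.803, with a difference of 0.1) were lost with array medians subtracted, and that of Ppp3ca without mouse 86 (0.0532). The germline forms G6pd2 (0.53 ± 1.28), Cstf2t (-0.03 ± 0.40) and Eif4g3 (-0.46) were not called, although Eif4g3 was under quantile normalization (-0.73). Another probe of Eif4g3 was lower at -6.00 (adjusted p 4.66e-07), so the call of this gene depends on the probe. Paralogs can share probe sequence, and the cross-hybridisation of these probes was not tested.

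**Figure D3:**
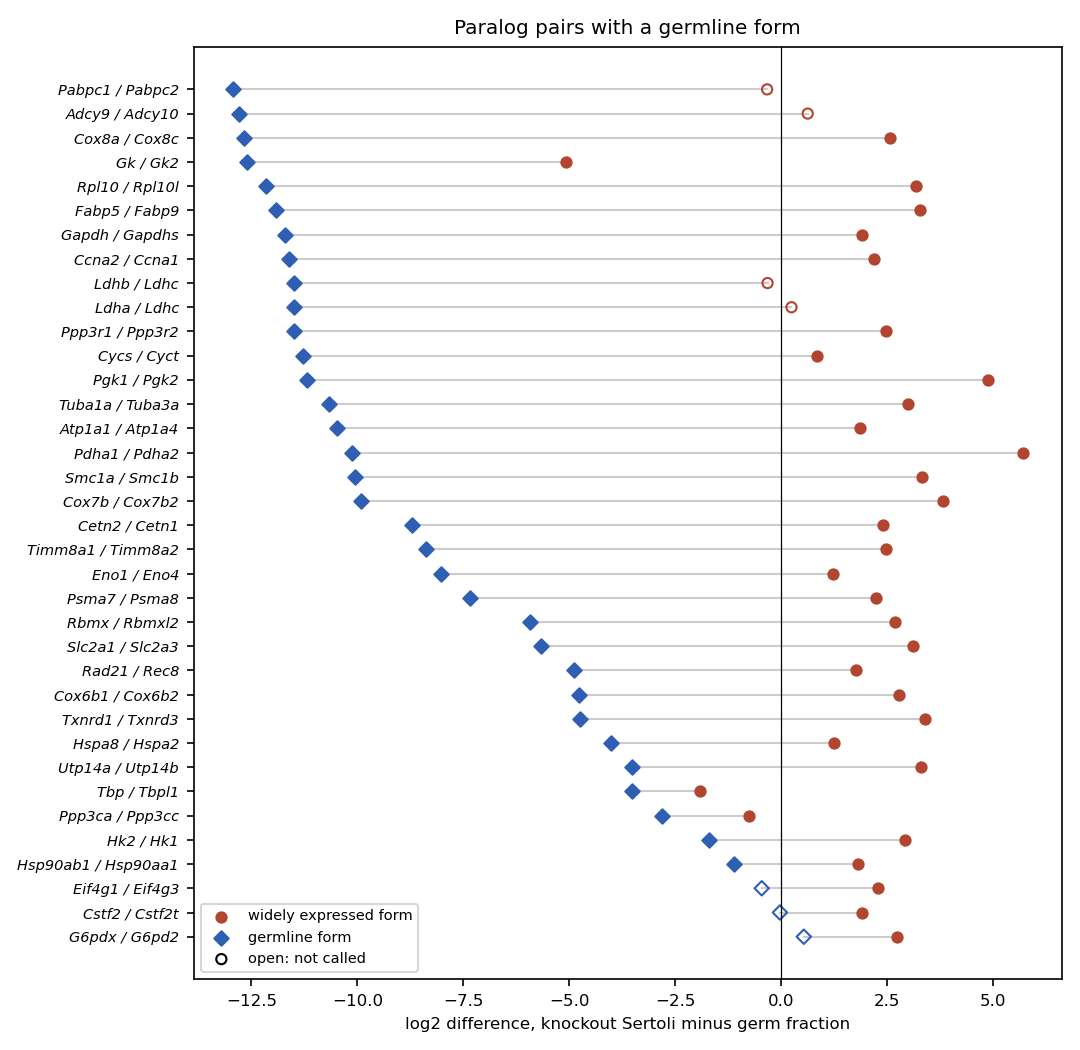
Log2 difference between the Sertoli and germ fractions of knockout testes for the widely expressed form (circles) and the form listed as germline (diamonds) of 36 gene pairs, filled where called. In 26 pairs the circle is filled on the right of 0 and the diamond filled on the left.

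Several of these pairs join an X-linked gene to an autosomal retrocopy, and X-linked genes are silenced in spermatocytes. The lists held 17 X-linked genes and 10 autosomal retrocopies, so not every X-linked gene has a retrocopy here. The share over other X-linked genes was not computed. This list leaves out Gk, the widely expressed partner of Gk2, and Gk was lower in the Sertoli fraction (-5.09). Of the 17 listed X-linked genes 16 were higher in the Sertoli fraction and none was lower by limma, also at an unadjusted p under 0.05 (median 2.68). The exception, the lysosomal galactosidase gene Gla, was not called (0.25 ± 0.33), and its sign depended on the scaling (-0.58 under quantile normalization, 1.11 with array medians subtracted). Rpl10, a ribosomal protein gene, was higher by 3.19 ± 0.24 and its retrocopy Rpl10l at least 3220-fold lower. Of 9 autosomal retrocopies 7 were lower (median -8.39, or -6.86 with bounds, -5.58 under normexp background correction and -3.52 with only probes detected on all 6 arrays). Multicopy X and Y genes of spermatids were lower in 15 of 19 cases (median -7.19, or -6.09 with bounds). With only probes detected on all 6 arrays, which leaves out genes seen in 1 fraction, the median of this list was -0.07, and under normexp background correction it was -4.71. Among those lower were the Y gene Sly (-7.66 ± 0.32), the X gene Slx (-8.26 ± 0.24) and Ssty2 (at least 288-fold). The 4 that were higher included 3 widely expressed Y genes, Ddx3y, Uty (3.1 ± 0.53) and Eif2s3y (1.5 ± 0.28). Another probe of Uty, the only one detected on all 6 arrays, gave -0.07. Ddx3y, an RNA helicase gene, lay at 1.55, 1.87 and 1.28 against -2.29, -2.64 and -2.12 (3.92 ± 0.25, adjusted p 7.40e-08).

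In the other direction, the largest measured differences by the rule for named genes included those of Sfrp2, a secreted Wnt modulator (10.67 ± 0.30), the chemokine gene Cxcl14 (10.65 ± 0.34), Inhba, the extracellular matrix genes Fbln2 (9.34 ± 0.23) and Ccdc80 (9.27 ± 0.20), the calcium-binding S100a4 (9.05 ± 0.42) and the tubulin gene Tubb2b (8.77 ± 0.28). Sfrp2 lay at 4.85, 4.68 and 4.21 in the Sertoli and -6.02, -6.15 and -6.09 in the germ fractions (adjusted p 2.66e-10). The 8 largest bounds were those of the adhesion receptor gene Adgrd1 (at least 526-fold), Col5a2 (334), the stromelysin gene Mmp3 (260), Fam180a (172), the pentraxin gene Ptx3 (153), the protocadherin gene Pcdh18 (150), the GABA receptor subunit gene Gabra3 (127) and Pcdhb17 (123). Of 28 collagen and basement membrane genes 27 were higher and 23 at least 4-fold (median 5.47). The basement membrane collagen genes Col4a1 (7.10 ± 0.20) and Col4a2 (6.22 ± 0.35), the laminin genes Lamb1 (6.26 ± 0.25) and Lamc1 (5.69 ± 0.28), and Nid1 (5.44 ± 0.19), which links both networks, were among them. The epithelial laminin chain gene Lamb3 was lower (-3.60 ± 0.27).

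Enzymes that cut the matrix and the proteins that restrain them were higher in the same fraction. Of 26 tested peptidases 24 were higher (median 4.47), with the gelatinase gene Mmp2 at 8.30 ± 0.57, the collagenase gene Mmp14 at 5.06 ± 0.73, the urokinase receptor gene Plaur at 6.84 ± 0.39 and the lysosomal cathepsin gene Ctsk at 5.84 ± 0.21. Ctss, the cathepsin of antigen-presenting cells, was lower (-2.07 ± 0.55), a call that was lost with array medians subtracted (adjusted p 0.0506). Of 24 inhibitors 16 were higher and 6 lower (median 2.63). The metalloproteinase inhibitors Timp3 (5.52 ± 0.14) and Timp2 (3.21 ± 0.25) were higher. The 6 inhibitors that were lower were the cystatins Cst8, Cst9 (-7.75 ± 0.38), Cst12 (-4.51 ± 0.39) and Cst13 (at least 905-fold), with Serpina5 (-3.80 ± 0.35) and Spint1 (-5.65 ± 0.40). The other listed cystatins, Cst3 (2.13 ± 0.17) and Cst6 (3.91 ± 0.22), were higher.

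Genes that anchor cells to the matrix and genes that join cells to each other did not go the same way. Of 29 integrin and focal adhesion genes 26 were higher in the Sertoli fraction and 1 was lower (median 3.53). Itgb1, the common beta chain of matrix integrins, lay at 3.72, 3.79 and 3.86 in the Sertoli and -2.02, -1.37 and -1.70 in the germ fractions (5.49 ± 0.19, adjusted p 7.27e-10). Its partners Itga5 (6.23 ± 0.45) and Itgav (5.96 ± 1.18), and the adaptor genes Parva (5.20 ± 0.18), Vcl (4.28 ± 0.38) and Tln1 (3.53 ± 0.20), were higher. A second probe of Vcl (-0.24) and of Tln1 (1.59) was not called. Itga2, a collagen receptor chain, was at least 28.5-fold lower. Of 21 adherens junction and ectoplasmic specialization genes 12 were higher and 8 lower (median 1.11). The catenin genes Ctnna1 (2.48 ± 0.24) and Ctnnb1 (2.15 ± 0.19), the placental cadherin gene Cdh3 (6.47 ± 1.49) and Nectin1 (4.72 ± 0.45) were higher. Cadm1, by which spermatogenic cells adhere to Sertoli cells, lay at -3.66, -3.19 and -3.91 against 1.35, 1.75 and 1.31 (-5.06 ± 0.32, adjusted p 6.63e-08). Espn, the actin bundler of the ectoplasmic specialization, was also lower (-4.59 ± 0.33), as was Nectin3 (-2.93 ± 0.21), the nectin of spermatids. Cdh2, the main cadherin between Sertoli and germ cells, lay at 2.21, 2.32 and 2.15 against 1.81, 2.20 and 1.66 and was not called (0.33 ± 0.19, adjusted p 0.134), but was called with array medians subtracted (1.19). Tight and gap junction genes gave 5 higher and 9 lower of 20 (median -0.57, which turned positive, 0.28, when array medians were subtracted). Cldn3, a claudin of the blood-testis barrier (-5.34 ± 0.36), and the tight junction scaffold gene Cgn (-2.95 ± 0.29) were lower, the polarity gene Pard3 (4.45 ± 0.17, with 1 of its 4 probes not called at 0.99) and the receptor genes Cxadr (3.92 ± 0.27) and F11r (3.32 ± 0.36) were higher.

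**Figure D4:**
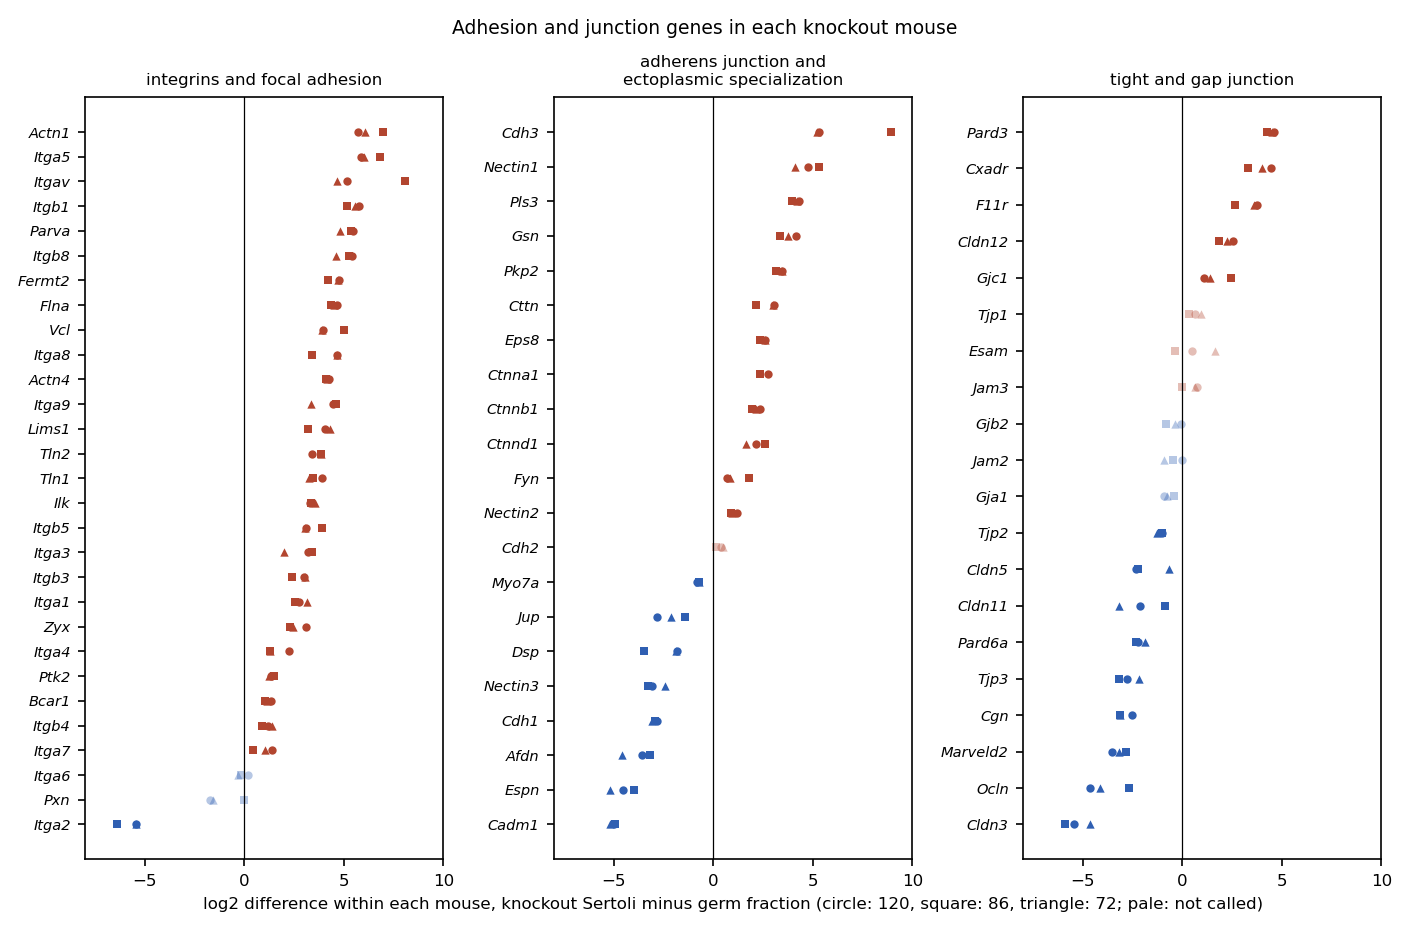
Log2 difference between the Sertoli and germ fractions within each knockout mouse for genes of 3 adhesion lists, 1 row per gene and 1 symbol per mouse, pale where not called. Integrin and focal adhesion genes lie to the right of 0 in 26 of 29 cases as called, whereas junction genes lie on both sides, with Cadm1, Espn and Cldn3 far to the left.

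Signalling genes were divided. Of 32 cytokine and interferon genes 22 were higher and 6 lower (median 2.85). Cxcl12, the ligand that guides stem and germ cells, lay at 5.4, 5.08 and 4.58 in the Sertoli and -0.54, -0.37 and -0.23 in the germ fractions (5.4 ± 0.23, adjusted p 3.53e-09). Csf1 (7.2 ± 0.28), Tgfb2 (6.95 ± 0.37) and Il6 (5.81 ± 0.44) were higher, as were the interferon-induced genes Ifit1 (6.37 ± 0.34), Isg15 (6.03 ± 0.46) and Bst2 (5.67 ± 0.37). The inflammatory cytokine gene Il1b (at least 9.39-fold) and the neutrophil chemokine gene Cxcl1 (-4.97 ± 0.29) were lower. The other 4 that were lower, Tnf, Il1a, Cxcl2 and Cxcl10, were not called under normexp background correction, with adjusted p values of 0.349, 0.559, 0.293 and 0.0817. Il1a had 0.0653 and 0.0822 when mouse 120 or mouse 72 was left out. Cxcl10 lost its call in 11 of 19 alternatives, with adjusted p values of 0.0712, 0.246, 0.0566 and 0.0772 when mouse 120, 86, 99 or 73 was left out and 0.528 with array medians subtracted. Macrophage markers lay on the same side as these 6, and their part was not tested. Of 25 immediate early and stress genes 15 were higher and 4 lower (median 1.62), with Myc (5.52 ± 0.56), Ccn2 (4.60 ± 0.20) and Fosl2 (5.55 ± 0.24) higher and Fos (-1.28 ± 0.26), Fosb (-2.81 ± 0.42), Egr3 (-2.37 ± 0.65) and Atf3 (-2.99 ± 0.27) lower. The call of Fos was lost with array medians subtracted (adjusted p 0.307), and that of Egr3 without mouse 120 (0.0767) and under normexp background correction (0.371).

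Genes of cholesterol supply were mostly higher in the Sertoli fraction. Of 28 such genes 24 were higher and 2 lower (median 2.35). Hmgcs1, an early enzyme of the pathway, lay at 4.41, 4.26 and 4.32 against 1.12, 1.38 and 1.41 (3.03 ± 0.17, adjusted p 7.09e-08), and the late enzyme gene Cyp51 was higher by 4.80 ± 0.47. Fdft1, which commits the pathway to sterols (-1.92 ± 0.33), and the lipoprotein receptor gene Scarb1 (-1.04 ± 0.22, with its other probe not called at -1.06) were lower, the latter not with array medians subtracted (adjusted p 0.481). The sterol-responsive factor of these genes acts beside SP1 and the CCAAT-binding factor. Promoters were found for 20 of the 28 genes. The letters CCAAT stood in 73.1% of the 26 promoters of the list and in 37.4% of all promoters of the table, with 35.6% of those of genes at least 4-fold higher in the Sertoli fraction and 37.4% of those of genes called 4-fold in neither direction. The SP1 letters GGGCGG stood in 84.6% of the promoters of the list, 35.7% of all, 61.4% of those of genes at least 4-fold higher and 58.0% of the last set. The promoters of Hmgcs1 and Cyp51, at chr13:119690101-119690350 (plus strand) and chr5:4104698-4104947 (minus strand), show the CCAAT letters, or ATTGG on the other strand, in capitals. In Hmgcs1 they begin 237, 176 and 45 bases before the start and in Cyp51 29 bases before it.
Hmgcs1: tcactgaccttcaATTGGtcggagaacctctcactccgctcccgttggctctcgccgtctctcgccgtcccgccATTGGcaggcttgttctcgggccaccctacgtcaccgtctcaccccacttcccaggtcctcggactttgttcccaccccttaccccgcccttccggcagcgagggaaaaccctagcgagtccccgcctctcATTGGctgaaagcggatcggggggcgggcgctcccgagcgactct
Cyp51: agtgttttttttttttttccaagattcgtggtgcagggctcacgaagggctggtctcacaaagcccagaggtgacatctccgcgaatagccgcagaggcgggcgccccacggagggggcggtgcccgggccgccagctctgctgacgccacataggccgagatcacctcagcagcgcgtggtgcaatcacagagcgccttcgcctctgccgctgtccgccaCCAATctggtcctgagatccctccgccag
All 3 copies in Hmgcs1 are on the other strand and that in Cyp51 is on the strand shown.

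Genes of the retinoid pathway, which carries the signal for meiotic entry, lay on both sides. Of 20 retinoid genes 12 were higher and 8 lower (median 1.06). Dhrs3, which turns retinal back to retinol (5.22 ± 0.31), Aldh1a1, which makes retinoic acid (2.26 ± 0.22), and the receptor gene Rarg (3.68 ± 0.30) were higher. Crabp1, a retinoic acid carrier, was lower (-4.5 ± 0.18), as was the target gene Stra8. Of 31 antioxidant genes 21 were higher and 6 lower (median 1.70). Nqo1 (5.48 ± 0.39), Hmox1 (3.95 ± 0.21) and Gpx1 (4.18 ± 0.26) were higher, as was the thioredoxin reductase gene Txnrd1 (3.38 ± 0.23), while the testis thioredoxin reductase gene Txnrd3 was lower (-4.74 ± 0.18).

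Ribosomal proteins build the ribosome and are made in every cell. Of 60 ribosomal protein genes 59 were higher (median 1.46, or 0.61 under quantile normalization), 14 of them at least 4-fold. Rps4x, on the X chromosome, was the farthest at 5.48, 5.53 and 5.93 against 1.99, 2.30 and 1.82 (3.61 ± 0.24, adjusted p 8.74e-08). Of 38 proteasome genes 24 were higher and 7 lower (median 0.90, or 0.46 under quantile normalization and 1.75 with array medians subtracted). The immunoproteasome gene Psmb8 (3.17 ± 0.38) and the activator gene Psme1 (2.73 ± 0.20) were higher, and the germline subunit gene Psma8, named above, was lower. Respiratory chain genes divided, with 21 higher and 9 lower of 49 (median 0.31, which turned negative, -0.14, under quantile normalization). Of 24 heat shock genes 13 were higher and 7 lower (median 0.72, or 0.18 under quantile normalization and 1.57 with array medians subtracted). Cryab (7.44 ± 0.17) and Hspb8 (5.30 ± 0.44) lay at one end and the testis forms Hspa1l (-8.97 ± 0.32) and Dnajb13 (at least 529-fold lower) at the other. Of 29 mitotic cell cycle genes 10 were higher and 15 lower (median -0.61, which turned positive, 0.24, when array medians were subtracted). The G1 cyclin genes Ccnd2 (6.35 ± 0.27) and Ccnd1 (4.46 ± 0.40) were higher, and the mitotic kinase genes Aurka (-4.24 ± 0.23), Bub1 (-3.95 ± 0.38) and Plk1 (-3.20 ± 0.22) were lower. Of 17 genes often used as references 10 were higher and 2 lower (median 0.88), with Actb at 1.46 ± 0.35, B2m at 3.81 ± 0.30 and Tbp lower. The median of this list depended on the scaling, at 0.13 under quantile normalization and 1.74 with array medians subtracted.

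Targets of the p53 family were mostly higher in the Sertoli fraction, while Trp73 itself gave no settled difference. Trp73 had 3 probes, all well above background on all 6 arrays, and they disagreed. The brightest, A_52_P193555, lay at -2.04, -1.52 and -1.70 in the Sertoli and -2.76, -2.56 and -3.29 in the germ fractions. Its difference of 1.11 ± 1.77 was not called (adjusted p 0.583), with an SE that includes the control arrays of mouse 99, and it was called in a fit of the 6 knockout arrays alone (adjusted p 0.00503), without mouse 99 (0.00644) and with the arrays of a mouse paired (0.00867). A_55_P1988133 lay the other way at -5.43, -5.82 and -5.55 against -3.50, -4.39 and -3.79, and A_52_P410636 differed by -0.47. Where the probes lie relative to the deleted part is not given in the sources used here, so they check nothing about the deletion. Trp53 lay at -0.48, -2.05 and -1.44 against -2.54, -6.79 and -3.45 and was not called (2.94 ± 1.7, adjusted p 0.139) but was called in fits of the 6 knockout arrays alone, unpaired (0.0402) or paired by mouse (0.00581), under normexp background correction (0.0291) and with array medians subtracted (0.0295). Trp63 lay at -0.25, 0.05 and 0.34 against 1.37, 0.99 and 1.44 on its brighter probe, which was lower in the Sertoli fraction (-1.22 ± 0.36, adjusted p 0.00882), and its other probe was not called (0.26 ± 0.23). The call of Trp63 was lost without mouse 120 (adjusted p 0.0834) and when array medians were subtracted (0.199). With the family members, 18 of 25 genes of this list were higher and 2 lower (median 2.64). Ccng1, a cyclin induced by p53, lay at 3.71, 4.03 and 3.49 against -2.50, -2.29 and -2.13 (6.05 ± 0.54, adjusted p 1.26e-06). The cell cycle inhibitor gene Cdkn1a was higher by 4.04 ± 0.20, Phlda3 by 5.29 ± 0.30 and the death effector genes Bax by 3.56 ± 0.22 and Pmaip1 by 3.52 ± 0.21. Mdm2, the ubiquitin ligase that limits p53, was not called (-0.12 ± 0.22) but was under quantile normalization (-0.58, adjusted p 0.018), and its relative Mdm4 was lower on its brighter probe (-1.93 ± 0.21) and not called on the other (-0.75). Among 29 apoptosis genes 20 were higher and 7 lower (median 1.69). Apaf1, the scaffold of the apoptosome (4.55 ± 0.66), and the survival gene Bcl2 (3.38 ± 0.17) were higher. Bcl2l14 (-11.78 ± 0.31, or -5.63 on its other probe), the death ligand gene Fasl (at least 13.2-fold), Diablo (-3.08 ± 0.20) and Bik (-2.77 ± 0.32) were lower.

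The same contrast in the control mice asks whether the fraction difference depends on genotype. It did so for 2 genes. Of the 24788 genes, 1 (0.00403%) had a larger and 1 (0.00403%) a smaller difference in knockouts (limma interaction term, adjusted p 0.0245 for each). An unadjusted p under 0.05 in that term was found for 1140 genes, with 1239 expected if no gene differed. Tas1r1, a subunit of the umami taste receptor, lay at -6.20, -5.91 and -5.88 in the Sertoli and -5.82, -5.63 and -5.12 in the germ fractions of knockout mice 120, 86 and 72. In control mice 99, 73 and 74 it lay at -5.95, -6.05 and -4.76 in the Sertoli and at 0.31, -0.29 and -0.75 in the germ fractions. The difference between fractions was thus -0.47 in knockout (0.7 under quantile normalization) and -5.34 in control mice, an interaction of 4.87 ± 0.52. Only the control germ arrays stood apart from the other 9. Mpzl2, an adhesion protein of the immunoglobulin family, lay at -2.49, -2.15 and -2.03 in the Sertoli and -2.65, -2.26 and -2.20 in the germ fractions of the knockouts, and at -2.02, -2.08 and -2.43 and -5.86, -5.16 and -5.83 in the controls. Its interaction was -3.29 ± 0.34, again with the control germ arrays apart. Paired by mouse, neither interaction passed (adjusted p 0.226 for Tas1r1 and 0.102 for Mpzl2). With 1 mouse left out, Tas1r1 passed without mouse 74 (0.00322) and not without mouse 120 (0.0775), 86 (0.606), 72 (0.316), 99 (0.154) or 73 (0.469). Mpzl2 passed without mouse 120 (0.0499) and not without mouse 86 (0.606), 72 (0.316), 99 (0.154), 73 (0.111) or 74 (0.105). Neither passed under normexp background correction (0.623 for each).

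The other genes chosen by the smallest interaction p did not pass. On the smaller side were Spp1 (osteopontin, -4.86 ± 0.66), Timp1 (-4.40 ± 0.62), the cytokine receptor gene Tnfrsf12a (-2.91 ± 0.38) and the matricellular gene Ccn1 (-1.56 ± 0.22), each with an adjusted p of 0.104. In all 4 the Sertoli fraction was the higher in both genotypes. Timp1 lay at 6.11, 5.71 and 6.39 in the Sertoli and -0.96, 0.71 and 0.45 in the germ fractions of the knockouts, and at 6.02, 6.19 and 7.04 and -3.89, -4.45 and -3.61 in the controls. On the larger side Cd276 (2.03 ± 0.52), Calcb (1.35 ± 0.37) and Ak7 (1.12 ± 0.35) had adjusted p values from 0.573 to 0.816. No member of any list had a called interaction by limma, and 108 of 909 (11.9%) had an unadjusted p under 0.05, against 4.6% of all genes. The lists were drawn up with earlier results of these data known, so this share is a description. Across all genes the differences in the 2 genotypes correlated at r 0.991, as a description of genes that share arrays within each genotype. Of the 18701 genes called in knockouts, 17899 were called with the same sign in controls, 0 with the opposite sign and 802 not at all, and at an unadjusted p under 0.05 in knockouts 1 gene was called with the opposite sign in controls. That gene, named after its values were seen, was the transporter gene Slc15a3, at -0.76 in knockouts (adjusted p 0.0566, or 0.0137 paired by mouse over the 6 knockout arrays) and 1.3 in controls. List medians in knockout and control mice were -10.68 and -9.87 for elongating spermatid, -8.76 and -8.75 for round spermatid, -7.03 and -7.14 for spermatocyte and -1.06 and -0.82 for Sertoli markers. They were 5.56 and 5.64 for fibroblast, 2.85 and 3.65 for cytokine, 3.53 and 3.92 for integrin and 4.47 and 5.04 for peptidase genes.

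**Figure D5:**
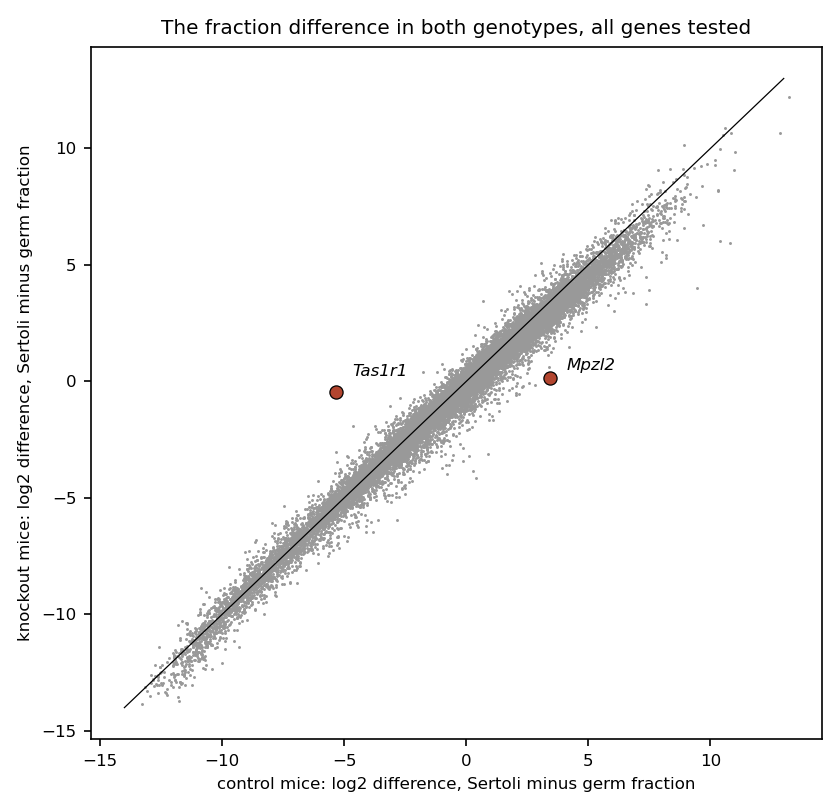
Log2 difference between the Sertoli and germ fractions in control mice (horizontal axis) and knockout mice (vertical axis) for 24788 genes, with the line of equal values. Tas1r1 and Mpzl2, the genes with a called interaction, lie off the line, at -5.34 and 3.44 in controls and -0.47 and 0.15 in knockouts.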

How the data were processed

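The arrays were 1-colour Agilent mouse expression arrays, 1 per fraction and mouse, hybridised with Cy3-labelled RNA made from 200 ng of Trizol-extracted RNA, per the labels' protocols. The deposited scanner files hold the intensity of each spot, and per the file headers they were made with Agilent Feature Extraction 10.7.3.1, whose processed signal was used here. The submitters' processing notes name limma with no version. The deposited value table holds log2 values made by the authors, with a median of 8.29 in each array. Their ranks matched those of the processed signal (Spearman correlation of 0.9999 to 1), and their scaling is not stated.

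From the processed signal, control spots and outlier spots were left out, spots of a probe were averaged, and log2 values were scaled to the 75th percentile of each array. A fit of 4 group means over 12 arrays was made with limma 3.58.1 in R 4.3.3, with Benjamini-Hochberg adjustment over 24788 genes and a threshold of 0.05. Each gene took the values of its probe that was brightest on average over the 6 knockout arrays. Of 4624 genes with several probes, 3056 had the same call on all and 313 had probes called in opposite directions. RefSeq (GRCm38.p6) named 26055 probes, and 13374 kept the name in the files. For 91 genes an array was left out of the fit after outlier removal. The fit was tested on simulated data.

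The mouse numbers pair the samples, since both fractions came from the same animal. Deviations from the group means correlated at 0.257, 0.286 and 0.197 within mice 120, 86 and 72 and at -0.283 to 0.045 between fractions of different mice. Both fractions of a knockout mouse shared a slide, so mouse and slide cannot be told apart here. Deviations from a mean of 3 arrays sum to 0, which pushes the values between mice down when those within mice are positive. Only 3 mice stood in each group, and the p-values rest on the spread between them.

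The genes named were the 8 with the largest measured differences and the 8 with the largest bounds in each direction, the 5 with the smallest interaction p in each direction, the p53 family, and examples from the lists. The members and lists were chosen with earlier results of these data known. The alternatives tried were normexp correction, quantile and median scaling, a percentile over commonly detected probes, the authors' table, other filters on dim probes, the knockout arrays alone, mouse and slide as blocks, every probe separately, a mean-variance trend, and leaving out each mouse. Some genes that met these rules are not reported here. Identity between proteins was not computed.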

Additional observations from a re-analysis of the deposited data

Results flagged for a closer look

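Tas1r1 and Mpzl2 were singled out because the difference between fractions differed between knockout and control mice by limma's interaction term. For Tas1r1 the interaction was 4.87 and for Mpzl2 it was -3.29 (adjusted p 0.0245 for each). Neither call held with fractions paired by mouse (adjusted p 0.226 and 0.102) or under normexp background correction (0.623 for each). With 1 mouse left out, adjusted p values ran from 0.00322 to 0.606 for Tas1r1 and from 0.0499 to 0.606 for Mpzl2. No cause was tested.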

How the results depend on the processing

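With 3 mice in each group, small differences depend on the scaling. Of 4726 alternative values for 252 named genes, 4648 kept their side of the threshold and, where called, their direction. Of the rest, 34 lost the call, 32 gained one and 12 changed sign. A change of sign was counted only where the gene was called in the main fit or in the alternative. The sign of a gene called in neither could turn and still count as kept. The sign of Gla turned under quantile normalization (-0.58) and in the authors' table (-0.56), as did those of Tpi1 (-0.12 in both), Hhip (0.03 and 0.02), Ldha (-0.57 and -0.55) and Tas1r1 (0.7 and 0.69). That of Ppp3ca turned with array medians subtracted (0.1), and that of Uty with the filter on all 6 knockout arrays (-0.07), which uses another probe. The oxidative phosphorylation median turned to -0.142 under quantile normalization, -0.109 with the percentile of commonly detected probes and -0.143 in the authors' table. The tight and gap junction median turned to 0.282 with array medians subtracted and 0.004 with the filter on all 6 arrays, and the mitotic cell cycle median to 0.243 with array medians subtracted. Subtracting array medians raised the median of all genes by 0.85, and list medians moved with it. The cause was not tested.

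The counts of higher and lower genes stayed within 1.5 times, with these exceptions. With array medians subtracted 7818 genes were at least 4-fold higher. With the filter on all 6 arrays, which tests 18883 genes and leaves out those detected in 1 fraction, 5017 were lower and 2616 at least 4-fold lower, and 63.1% of calls were higher. With mouse as a replicate block over 12 arrays, 9761 were higher and 9442 lower, and 18415 of the 18701 calls were kept. Among named genes the block changed no call other than those given in the report. Interactions larger in knockouts numbered 0 under normexp, the replicate block and the slide block, and 0 to 1 with a mouse left out. Interactions smaller in knockouts numbered 0 under normexp, quantile normalization, array medians, the authors' table and the replicate block, 2 under the slide block, 6 with a mean-variance trend, and 0 to 7 with a mouse left out.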
